A study of Mus musculus with 19 samples.

Results

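Of 19 arrays, 6 were compared here: 4 of follicular helper T (Tfh) cells that were negative for a BCL6 reporter, and 2 of naive CD4+ T cells. The Tfh arrays were those labelled CXCR5hi PD-1hi YFP-BCL6-, and the naive arrays those labelled as naive CD4+ T cells, so that the labels alone chose them. The Tfh cells were OT-II cells, whose receptor is a transgene specific for ovalbumin, and were heterozygous for a Bcl6yfp allele that reports BCL6 through yellow fluorescent protein. They had been transferred into congenic recipients, which were immunized under the skin with NP-OVA in complete Freund's adjuvant, and were sorted from draining lymph nodes on CXCR5, PD-1 and the absence of YFP. YFP-negative replicates 1 and 4 were from day 10 and replicates 2 and 3 from day 7. Naive cells were sorted as CD4+ CD44lo cells from the spleen of unimmunized mice, and all mice were labelled C57BL/6J, with no age given. The labels do not say whether the naive cells carried the OT-II receptor or the reporter allele, so genotype, tissue (spleen or lymph node) and immunization cannot be told apart in this comparison. The other arrays were of YFP-positive Tfh cells (n = 4), CXCR5lo PD-1lo cells of the immunized mice (n = 3), and CXCR5hi PD-1hi cells from mice with (Bcl6yfp/+, n = 3) or without (Bcl6+/+, n = 3) the reporter allele.

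Naive CD4+ T cells circulate between blood and lymphoid organs. The transcription factor KLF2 keeps them on this route by driving genes for exit and entry receptors, and FOXO proteins and interleukin 7 keep them quiescent and alive. Tfh cells instead settle in B cell follicles through the chemokine receptor CXCR5, need the repressor BCL6, and help B cells with interleukin 21, interleukin 4 and CD40 ligand. Which genes of the naive state Tfh cells keep, reduce or lose was read here from 4 lists of naive-associated genes, from 3 lists of Tfh genes and from all genes with a naive level.

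Values are log2 expression levels, and a level near log2 2 is the floor of the scale, so a difference from a group at the floor depends on where that floor lies. The median level of an array lay between 2.40 and 2.99, with 40.9% to 46.6% of its probe sets at log2 4 or more. The columns fell into 7 sets of like value distributions, taken as normalized together. YFP-negative replicates 1, 2 and 3 each lay in a set without naive cells, YFP-negative replicate 4 shared a set with naive replicate 1, and naive replicate 2 lay in another set. The difference between YFP-negative replicate 4 and naive replicate 1 (the like-normalized pair) is therefore given beside that over all 6 arrays. That pair is 1 array a side and has no replicate check. Naive replicate 1 and YFP-negative replicates 2 and 3 carried Xist (13.40, 14.00 and 13.54), and the other 3 arrays carried the Y-linked Eif2s3y (12.89 to 13.28), so the pair differed in sex-linked transcripts and, within YFP-negative cells, these cannot be told apart from the day. RNA of the Tfh cells and of naive replicate 1 was isolated with TRIzol, and that of naive replicate 2 with TRIzol or a column kit, as the labels give both.

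All 11 T cell identity genes with a probe set reached log2 8 on each of the 6 arrays, while the B cell genes Cd79a (2.08 to 2.30) and Ms4a1 (2.39 to 2.57) and the myeloid genes Itgam and Csf1r (2.10 to 2.27) lay at the floor. Foxp3, the regulatory T cell factor, stood at 5.39 and 8.17 in naive cells and at 2.46 to 3.91 in YFP-negative cells. Other genes of the B lineage lists were measured in these cells: of 5 B cell genes that passed the filter 2 were higher (Cd22 and Cd74) and 2 lower (Cd72 and Ighm), and of 5 germinal centre and plasma cell genes 3 were higher (Fas, S1pr2 and Xbp1) and 0 lower, with a median difference of 1.96. Among all genes tested 16.5% were higher and 4.64% lower. Cd74 stood at 7.05 to 10.32 on YFP-negative and at 5.33 and 5.6 on naive arrays. Its call was lost in 10 of 19 alternative ways of processing, described at the end. The part of these B lineage genes in the results was not tested. One array stood apart in markers of other cells. YFP-negative replicate 1 had Lyz1 at 11.46, Lyz2 at 10.98 and the plasma cell gene Jchain at 12.42, against 2.20 to 3.06 for these genes on the other 3 YFP-negative arrays, and its mean over 18 myeloid and dendritic genes was 5.54 (2.90 to 3.16 on the others). Without this array 1692 genes were called in place of the 2100 given next, and 20 naive-list genes were lower in place of 19.

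In bulk RNA, fewer cells of a type and less RNA per cell cannot be told apart, here and below. Of 9931 genes tested, 2100 (21.1%) differed between YFP-negative and naive cells at an adjusted p under 0.05 in the limma fit, from which all adjusted p-values here come. Of these, 1639 (16.5%) were higher and 461 (4.64%) lower in YFP-negative cells. The median difference over all genes was 0.38, so that a gene at 0 stood below the typical gene, and differences relative to that median are also given for the leading genes. In the like-normalized pair the median was 0.00, with 1356 genes (13.7%) higher and 1093 (11%) lower by log2 1 or more. The share of higher genes differed with the scaling: 78% of called genes were higher over all arrays, against 53.6% when the normalization set was a block (2216 higher, 22.3%, and 1916 lower, 19.3%), in which fit only the set of naive replicate 1 gives the difference from naive cells. After quantile normalization 1262 were higher and 1537 lower. In the pair, whose 2 arrays are also among the 6 that gave the calls, 446 of the 461 lower genes were lower by log2 1 or more and 1011 of the 1639 higher genes were higher by as much.

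**Figure D1:**
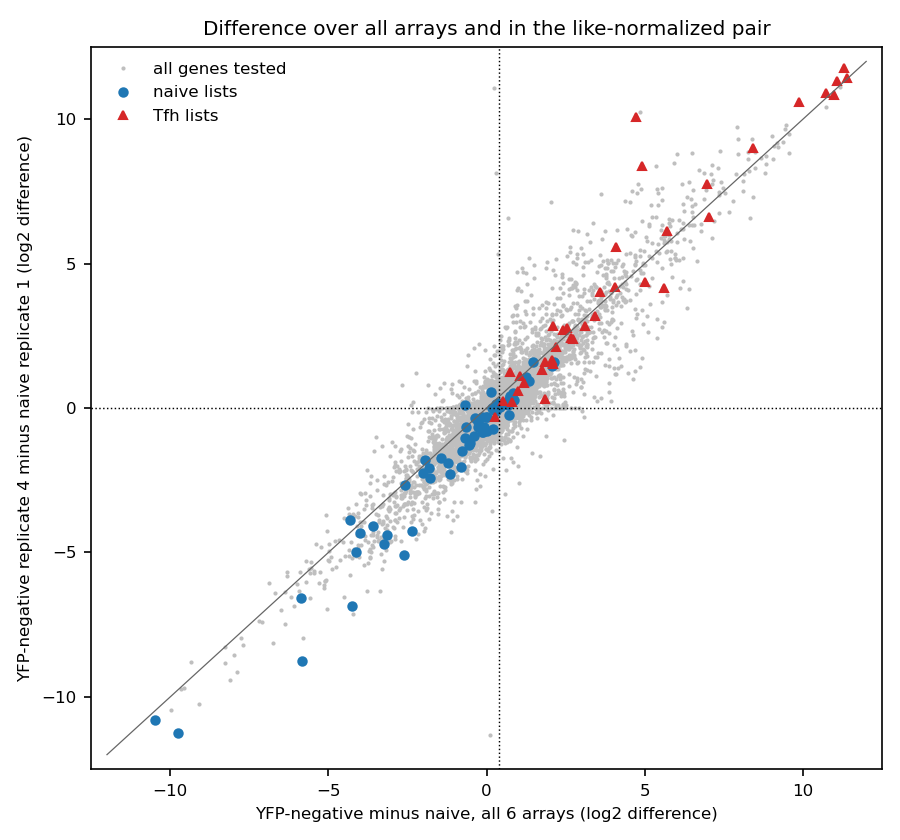
Log2 difference between YFP-negative and naive cells for each gene, over all 6 arrays (horizontal axis) and between YFP-negative replicate 4 and naive replicate 1 (vertical axis); grey points are all 9931 genes, blue circles the naive lists, red triangles the Tfh lists, the solid line equality and the dotted lines the medians of 0.38 and 0.00. Of the 21 naive-list genes below log2 -1 over all arrays, 19 lay under the line of equality, as did 468 of the 753 genes of any kind below log2 -1 and 82.3% of all genes.

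YFP-negative cells carried the Tfh program at high levels although they were sorted as reporter-negative. Cxcr5, used in the sort, stood at 13.72, 13.74, 13.66 and 13.70 on YFP-negative replicates 1 to 4 and at 2.26 and 2.39 in naive cells (log2 difference 11.38, SE 0.32, adjusted p = 5.4e-13). Tox2, a high mobility group factor of Tfh cells, stood at 14.23, 14.16, 13.81 and 14.30 against 2.53 and 3.11 (11.30, SE 0.33, adjusted p = 6.1e-13). Bcl6 itself, the reported gene, stood at 13.79, 14.00, 13.70 and 14.14 against 11.44 and 11.52, a rise of log2 2.43 (SE 0.26, adjusted p = 3e-06), or 2.05 relative to the median of all genes. A second probe set of Bcl6 gave 5.27 (SE 0.49), with means of 10.93 in YFP-negative and 5.66 in naive cells. Every YFP-negative array lay above both naive arrays for these 3 genes, as for 37% of all genes.

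Of 42 genes on the 3 Tfh lists, 37 were tested, and 32 were higher and 0 lower, with a median difference of 3.10 (0.38 over all genes). Among all genes 16.5% were higher and 4.64% lower. Cxcr5 and Pdcd1 were sorting markers. Among surface receptors and adaptors 13 of 16 rose, among them Pdcd1 (PD-1, 8.43, adjusted p = 2.7e-11), the inhibitory receptor Cd160 (6.97), the S1P receptor S1pr2, which holds cells in germinal centres (4.10), and the adaptor Sh2d1a (SAP, 2.11). All 13 tested transcription factors rose, with Maf at 7.02, Irf4 at 5.02, Batf at 4.06 and Pou2af1 at 3.10. The calls of Stat3 among these factors and of Cd84 (0.81) among the surface genes were each lost in 10 of 19 alternatives. Ascl2, a factor that induces Cxcr5, rose by 4.92 (adjusted p = 0.033) but stood at 9.99 and 10.77 on the day 10 arrays and at 3.64 and 4.90 on the day 7 arrays, and its call was lost in 11 of the alternatives. Among helper ligands 6 of 8 rose, with Il21 at 10.97, Il4 at 10.73, the WNT and BMP antagonist Sostdc1 at 9.87, Tnfsf11 (RANKL) at 5.69 and Cd40lg at 2.74.

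Some Tfh genes had values that parted by day within YFP-negative cells. The neuropeptide gene Gal stood at 11.12 and 12.22 on the day 10 arrays, and at 2.20 and 2.27 on the day 7 arrays, next to 2.16 and 2.29 in naive cells, and it was not called (4.73, SE 2.91, adjusted p = 0.27). Sostdc1 stood at 13.23 and 13.20 on day 10 and at 11.30 and 11.84 on day 7, and S1pr2 at 10.52 and 10.49 against 9.23 and 9.20. With 2 arrays a day and the sex-linked transcripts parting the same arrays, no test of the day was made in these cells. The other 4 Tfh genes not called were Ly9 (0.52), Il21r (0.26), Cxcr4 (0.74) and Penk (1.84).

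The 12 genes with the largest rises among those without overlap began with Cxcr5 and Tox2. They went on with the interleukin 1 receptor Il1r1 (11.17), the myeloid transcription factor Cebpa (11.08), Il21, Il4, the glycosyltransferase Gcnt1 (10.73), Sostdc1, the calcium binding protein S100a6 (9.57), the TNF family ligand Tnfsf14 (9.57), the clock and effector factor Bhlhe40 (9.46) and Tspoap1 (9.43). For each of them both naive arrays lay at log2 3.11 or below and all YFP-negative arrays at log2 11.02 or above. Cebpa stood at 13.44, 13.09, 12.98 and 13.35 on YFP-negative replicates 1 to 4, and the source of this transcript was not tested.

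The naive lists moved the other way, in part. They held 69 names, of which 5 are not analysed here (among them Ly6c1, Arl4c, Tcf7, and Fam65b, whose current name Ripor2 was on the list) and Crip3 did not pass the filter on low values. Of the 63 tested, 19 were lower, 6 higher and 38 not called, where 4.64% of all genes were lower and 16.5% higher. Their median difference was -0.26 (0.38 over all genes). With the normalization set as a block 34 were lower and 7 higher (19.3% and 22.3% of all genes), with a median of -0.66 (0.00 over all genes). In the like-normalized pair 26 were lower and 4 higher by log2 1 or more (11% and 13.7% of all genes). The lists differed among themselves: the recirculation list had the lowest median (-1.79, 6 of 9 lower), and the transcription factor list the highest (0.30, 1 of 17 lower).

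**Figure D2:**
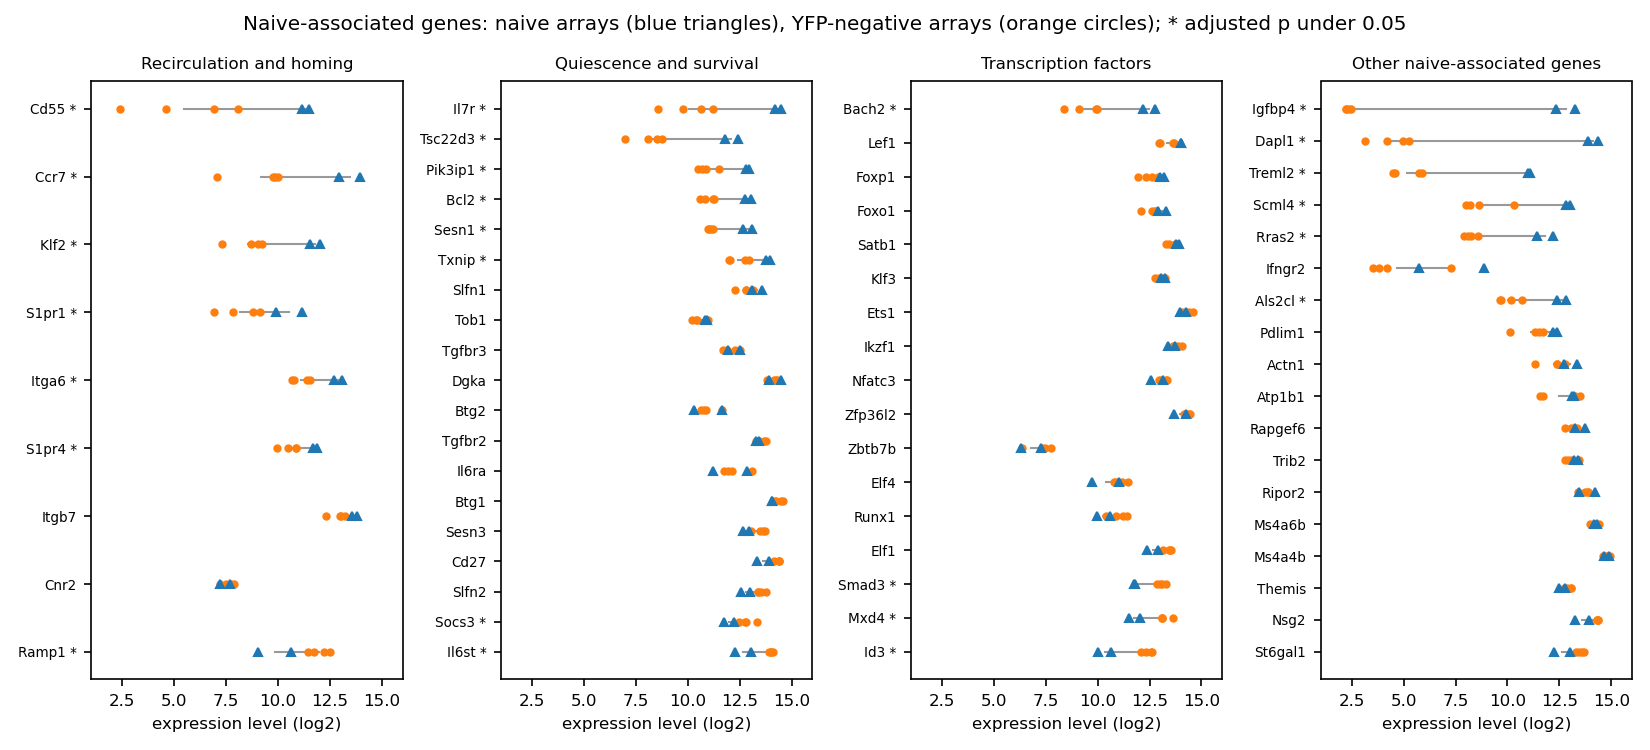
Log2 expression level of each tested gene of the 4 naive lists on the 2 naive arrays (triangles) and the 4 YFP-negative arrays (circles), ordered by the difference of the means, with a line between the means; an asterisk marks an adjusted p under 0.05. Igfbp4 and Dapl1 fell from above log2 12 to below log2 6, while most transcription factors other than Bach2 kept levels within about log2 1 to 2 of naive cells.

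Of 9 receptors and regulators of recirculation, 6 fell, 1 rose and 2 were not called, where 4.64% of all genes fell and 16.5% rose. Klf2 stood at 8.68, 9.23, 9.03 and 7.31 on YFP-negative replicates 1 to 4 and at 12.02 and 11.55 in naive cells, a fall to a level 9.37-fold lower (log2 -3.23, SE 0.56, adjusted p = 4.8e-04). Relative to the median of all genes the difference was -3.60, and in the pair it was -4.72. All 4 arrays lay below both naive arrays, as for 9.64% of all genes, yet each was well above the floor, so that Klf2 was reduced and not lost. S1pr1, the receptor for sphingosine 1-phosphate that lets cells leave lymph nodes and a target of KLF2, stood at 7.82, 8.80, 9.12 and 6.90 against 11.13 and 9.88 (-2.35, SE 0.61, adjusted p = 0.011). Ccr7, which brings T cells into the T zone, stood at 9.74, 10.00, 9.85 and 7.06 against 13.93 and 12.94 (-4.27, SE 1.18, adjusted p = 0.016). Replicate 4 was the lowest of the YFP-negative arrays for Klf2, S1pr1 and Ccr7, and it is also the array normalized with naive replicate 1. Without naive replicate 1, S1pr1 and Ccr7 no longer passed (adjusted p = 0.15 and 0.121), and without naive replicate 2 Ccr7 did not (0.065). Nor did they pass with the replicate number as a block (-1.17 and -2.49). Naive replicate 1 has no number and drops out of that fit, so naive replicate 2 alone gives the difference there too.

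The promoters of Klf2 and Il7r are printed here, as reduced naive genes that mark this comparison, from RefSeq (build GRCm38.p6, 250 bases before to 50 bases after the start of the gene). That of Klf2 lies at chr8:72318812-72319111 on the plus strand, with the capitals TAAATTTA, the core of the element bound by MEF2 factors, and GGGTG, which reads CACCC, the core of KLF binding boxes, on the other strand. That of Il7r lies at chr15:9529827-9530126 on the minus strand and has no capitals, as none of the searched letters occurred.

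Klf2: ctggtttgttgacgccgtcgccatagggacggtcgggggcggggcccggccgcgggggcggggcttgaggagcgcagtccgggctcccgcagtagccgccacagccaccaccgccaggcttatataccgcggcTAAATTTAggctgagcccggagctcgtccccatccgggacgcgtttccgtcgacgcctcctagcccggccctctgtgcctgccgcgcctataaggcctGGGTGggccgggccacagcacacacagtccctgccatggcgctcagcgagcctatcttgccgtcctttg

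Il7r: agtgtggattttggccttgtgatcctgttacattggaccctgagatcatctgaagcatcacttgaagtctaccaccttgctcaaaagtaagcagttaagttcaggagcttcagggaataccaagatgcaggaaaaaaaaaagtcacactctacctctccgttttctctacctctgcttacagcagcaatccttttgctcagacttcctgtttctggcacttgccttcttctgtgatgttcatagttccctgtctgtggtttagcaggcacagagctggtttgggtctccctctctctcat

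Both strands were searched for CACCC, for TGTTTAC (bound by FOXO factors) and for TAAATTTA, which reads the same on both strands. Of 32851 promoters of 27025 genes, 57.5% held CACCC, 3.65% held TGTTTAC and 0.545% held TAAATTTA on either strand. These matches describe letters in the window and no binding. The search for TAAATTTA, and the printing of Il7r, were added after the sequences and values were seen.

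The other genes of this list were surface molecules. Cd55, a complement inhibitor, stood at 4.59, 8.06, 6.92 and 2.40 against 11.15 and 11.50 (-5.84, SE 1.32, adjusted p = 0.0042), and so spread over the widest range of the list within YFP-negative cells. The integrin chain Itga6 fell by 1.79 (SE 0.43, adjusted p = 0.0062) and the receptor S1pr4 by 1.23 (SE 0.32, adjusted p = 0.011). Both calls were lost without naive replicate 1 (-1.59 and -1.15) and with the replicate block (-1.2 and -0.9). That block also rests on naive replicate 2 alone. The integrin chain Itgb7 missed the threshold (-0.79, SE 0.27), and the cannabinoid receptor Cnr2 was not called (0.13). Ramp1, a receptor accessory protein for the neuropeptide CGRP, went the other way and rose by 2.14 (SE 0.45, adjusted p = 0.0024). Its naive arrays were far apart, at 10.61 and 9.04, below the YFP-negative arrays at 11.45 to 12.49, and it did not pass without naive replicate 2 (adjusted p = 0.111).

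**Figure D3:**
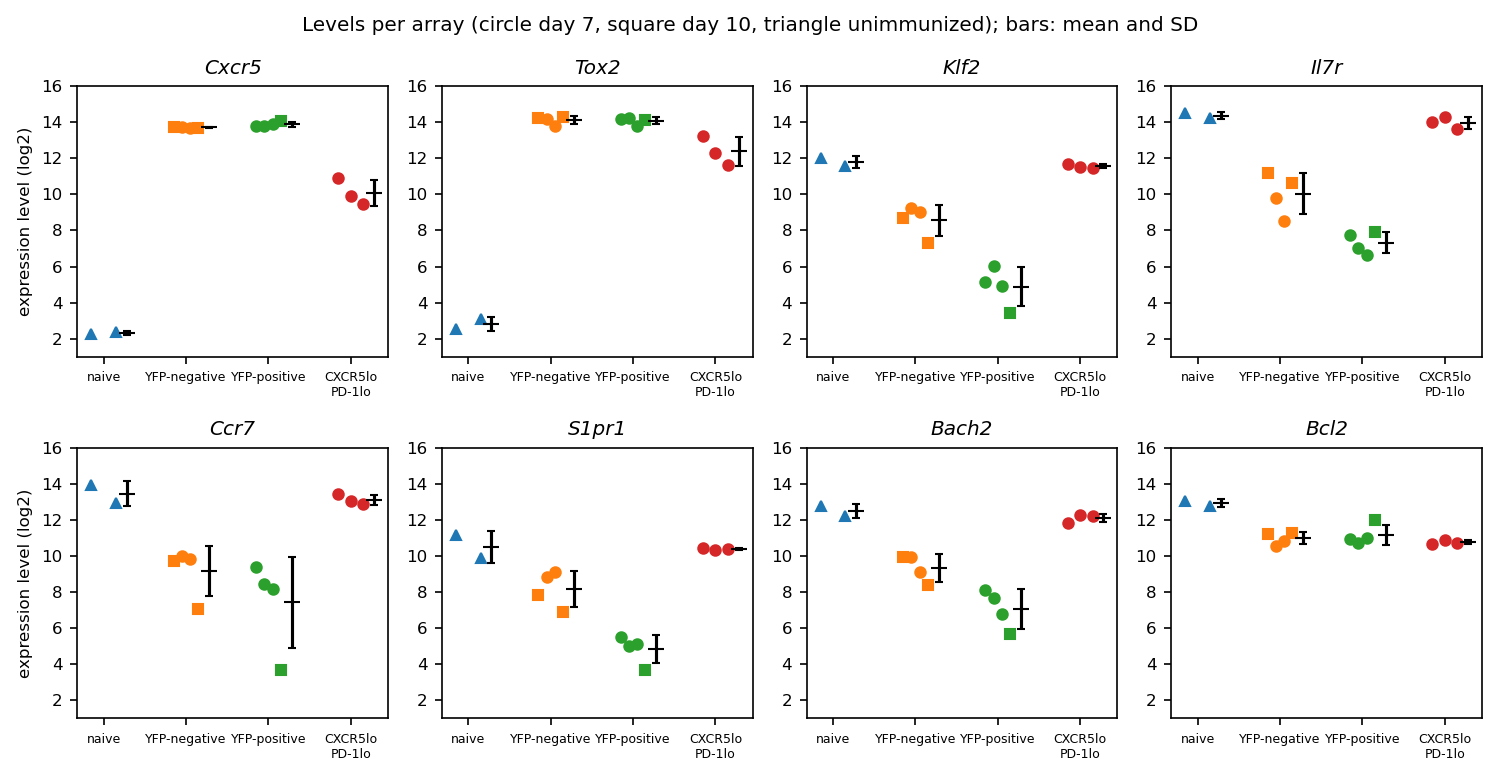
Log2 expression levels of 8 genes on each array of 4 groups (triangles naive, circles day 7, squares day 10), with the mean and SD of each group beside its points. Cxcr5 and Tox2 were at or near the floor in naive cells only, and Klf2, Il7r, Ccr7, S1pr1 and Bach2 had lower means in YFP-negative than in naive and CXCR5lo PD-1lo cells, while YFP-positive cells had the lowest means of the 4 groups.

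Genes of quiescence and survival split. Il7r, the receptor chain for interleukin 7, stood at 11.19, 9.78, 8.55 and 10.64 on YFP-negative replicates 1 to 4 and at 14.50 and 14.21 in naive cells, 19.9-fold lower (-4.32, SE 0.82, adjusted p = 0.0011). In the pair the difference was -3.87. No YFP-negative array reached a naive array, and a second probe set gave -6.09. Bcl2, the survival factor that interleukin 7 sustains, stood at 11.21, 10.57, 10.82 and 11.27 against 13.06 and 12.76 (-1.95, SE 0.31, adjusted p = 2.1e-04). Tsc22d3 (GILZ), a glucocorticoid-induced gene, stood at 8.75, 8.53, 6.96 and 8.09 against 12.40 and 11.77 (-4, SE 0.70, adjusted p = 5.3e-04). Relative to the median of all genes its difference was -4.38, and 1 of its other probe sets was near the floor and flat (0.13). The PI3 kinase inhibitor Pik3ip1 fell by 2.01 and the mTORC1 inhibitor Sesn1 by 1.81, and Txnip, which restrains glucose uptake, fell by 1.44 (adjusted p = 0.035) with a call that 9 alternatives did not keep.

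Of the other 13 genes on this list, 11 were not called and 2 rose (16.5% of all genes rose and 4.64% fell). Il6st (gp130), the shared signalling chain for interleukin 6, stood at 14.09, 13.93, 13.99 and 14.02 against 13.06 and 12.26 (1.35, SE 0.24, adjusted p = 6.8e-04). Socs3, its feedback inhibitor, rose by 0.85 (adjusted p = 0.037), but was not called after quantile normalization or median centring. The ligand-binding chain Il6ra did not differ detectably (0.20, SE 0.50). The antiproliferative gene Btg1 (14.21 to 14.59 against 14.07 on both naive arrays), the co-stimulatory receptor Cd27 (14.16 to 14.41 against 13.33 and 13.90), the lipid kinase Dgka (13.82 to 14.29 against 13.93 and 14.49) and the TGF-beta receptor Tgfbr2 (13.29 to 13.74 against 13.30 and 13.41) were all among those not called, as were Tob1 (-0.37), Btg2 (0.01), Sesn3 (0.67), Slfn1 (-0.57), Slfn2 (0.74) and Tgfbr3 (-0.13). These values come from the probe set with the highest mean. Other probe sets gave 2.03 (SE 0.37) for Sesn3, 1.6 (SE 0.46) for Tgfbr2, and 0.13 and 1.35 for Btg1. With the mean of all kept probe sets Sesn3 (1.35) and Tgfbr2 (0.88) were called higher. With the set as a block 9 of the 19 genes were lower (19.3% of all genes were), among them Dgka (-0.66, adjusted p = 0.0029).

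Among transcription factors of naive T cells, Bach2 was the 1 that fell, of 17 tested. Bach2, a repressor that restrains effector genes, stood at 9.96, 9.93, 9.11 and 8.36 against 12.77 and 12.19, 8.82-fold lower (-3.14, SE 0.56, adjusted p = 6.6e-04), with no overlap. Its other 2 probe sets gave -3.53 and -1.74. The factors that rose were Id3, an inhibitor of E proteins (2.07, adjusted p = 0.0031), the MYC antagonist Mxd4 (1.46, adjusted p = 0.0021) and the TGF-beta effector Smad3 (1.26, adjusted p = 4.3e-04). Id3 lost its call without naive replicate 2 (1.77). Mxd4 lost its call without naive replicate 1 (1.2) and with the replicate block (1.01), fits that both rest on naive replicate 2. The remaining 13 were not called, and all but Zbtb7b, which lay under log2 8 in naive cells, were kept by the level rule given below. By that rule 94.6% of all naive-expressed genes were kept, and 4.64% of all genes were called lower and 16.5% higher. The counts of this list therefore cannot be read as particular to transcription factors.

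Foxo1, which drives Il7r and Klf2 in T cells, was among the factors whose transcript was kept. It stood at 12.74, 12.80, 12.64 and 12.08 against 13.29 and 12.89 (-0.53, SE 0.29, adjusted p = 0.21), without overlap but within log2 1. Lef1, a TCF family factor of naive and Tfh cells, stood at 13.68, 13.65, 13.00 and 12.95 against 14.00 and 14.03 (-0.69, SE 0.37, adjusted p = 0.20). Foxp1, a quiescence factor, differed by -0.64 (SE 0.31), Satb1 by -0.28 and Klf3 by -0.13. The kept class rests on the probe set with the highest mean. Other probe sets ran from -1.51 to 0.13 for Foxp1, from -2.4 to -0.45 for Satb1 and from -0.81 to -0.04 for Klf3. Those of Foxo1 ran from -0.49 to 0.29, and Lef1 had another at -1.58. These 5 were called lower with the set as a block (differences from -1.17 for Lef1 to -0.30 for Klf3) and after quantile normalization or median centring, so their call depended on the scaling. With the replicate number as a block the values for Satb1 and Klf3 were 0.12 and 0.23, also not called. Ets1 (0.23, SE 0.26) and Ikzf1 (0.25, SE 0.27) were not called, and with the set as a block their differences were 0.00 and -0.10. The others not called were Elf1 (0.75), Elf4 (0.70), Runx1 (0.70), Zfp36l2 (0.37), Nfatc3 (0.30) and Zbtb7b (0.42). Other probe sets ran from 0.4 to 2.19 for Ets1 and from 0.84 to 1.83 for Runx1. Ikzf1 had another at 2.21 (SE 0.48), and Zfp36l2 another at -1 (SE 1.06). With the mean of all kept probe sets Ikzf1 (1.23) and Runx1 (1.29) were called higher.

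The list of other naive-associated genes held the deepest falls. Igfbp4, an insulin-like growth factor binding protein, stood at 2.35, 2.24, 2.24 and 2.48 on YFP-negative replicates 1 to 4 and at 13.26 and 12.33 in naive cells (-10.47, SE 0.69, adjusted p = 1.1e-08). Dapl1, a gene high in naive lymphocytes, stood at 5.24, 4.22, 4.96 and 3.13 against 14.37 and 13.88 (-9.74, SE 0.76, adjusted p = 6.8e-08). In the pair the differences were -10.79 and -11.25. The receptor Treml2 fell by 5.86 (adjusted p = 9.1e-06), the Polycomb-related gene Scml4 by 4.12 (adjusted p = 3.7e-04), the small GTPase Rras2 by 3.60 (adjusted p = 3.1e-05) and Als2cl by 2.57 (adjusted p = 4.7e-06). The other 12 of the 18 were not called, where 4.64% of all genes were lower and 16.5% higher over all arrays. With the set as a block 12 of the 18 were lower and 1 higher (19.3% and 22.3% of all genes). In the pair 9 were lower by log2 1 or more (11% of all genes). Ms4a4b (14.60 to 14.95 against 14.67 and 14.89) and Ms4a6b (13.99 to 14.41 against 14.18 and 14.30), membrane proteins of T cells, and Themis (12.71 to 13.06 against 12.46 and 12.78), a regulator of T cell receptor signalling, overlapped with naive cells or lay beside them. A second probe set of Ms4a4b differed by -3.25 (SE 1.33), and that of Ms4a6b by -0.69 (SE 0.31). The others not called were Nsg2 (0.75), St6gal1 (0.87), Ripor2 (-0.12), Trib2 (-0.26), Rapgef6 (-0.40), Actn1 (-0.80), Pdlim1 (-1.15), Atp1b1 (-0.68) and Ifngr2 (-2.61). With the set as a block Actn1 (-2.61, adjusted p = 0.0013), Pdlim1 (-2.59, adjusted p = 2.6e-04) and Ifngr2 (-4.39, adjusted p = 0.0023) were among the lower genes.

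Most members of the GIMAP family of GTPases, which supports survival of peripheral T cells, were in the kept class defined below (6 of 8, with Gimap7 reduced and Gimap5 not naive-expressed). That class held 94.6% of all naive-expressed genes, so the count cannot be read as particular to this family. Over all genes 16.5% were called higher and 4.64% lower. Of the 8 members tested, 0 were higher and 0 lower in limma (1 at an unadjusted p under 0.05, Gimap7), with a median of -0.03. The largest difference was that of Gimap7 (-1.40, SE 0.55, adjusted p = 0.084), at 11.26, 10.61, 10.69 and 9.91 against 11.91 and 12.13, and the only member without overlap. With the set as a block 3 members were lower (19.3% of all genes were), namely Gimap7 (-2.25), Gimap4 (-0.97) and Gimap8 (-0.34).

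Over all genes, 6967 were naive-expressed, meaning log2 8 or more on both naive arrays. YFP-negative cells kept 6594 of them (94.6%), with a mean at most log2 1 below the naive mean and at least log2 8. In the like-normalized pair 633 of the 6967 were lower by log2 1 or more, 302 of them in the kept class. Another 318 (4.56%) were reduced beyond that, 33 (0.474%) were low, with a mean under log2 6, and 22 (0.316%) were lost, with all 4 arrays under log2 4. These classes describe levels and are no test. On the naive lists 40 genes were kept, 16 reduced, 3 low (Cd55, Dapl1 and Treml2) and 1 lost (Igfbp4), and 3 were not naive-expressed. The 3 were Cnr2, Zbtb7b and Ifngr2.

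**Figure D4:**
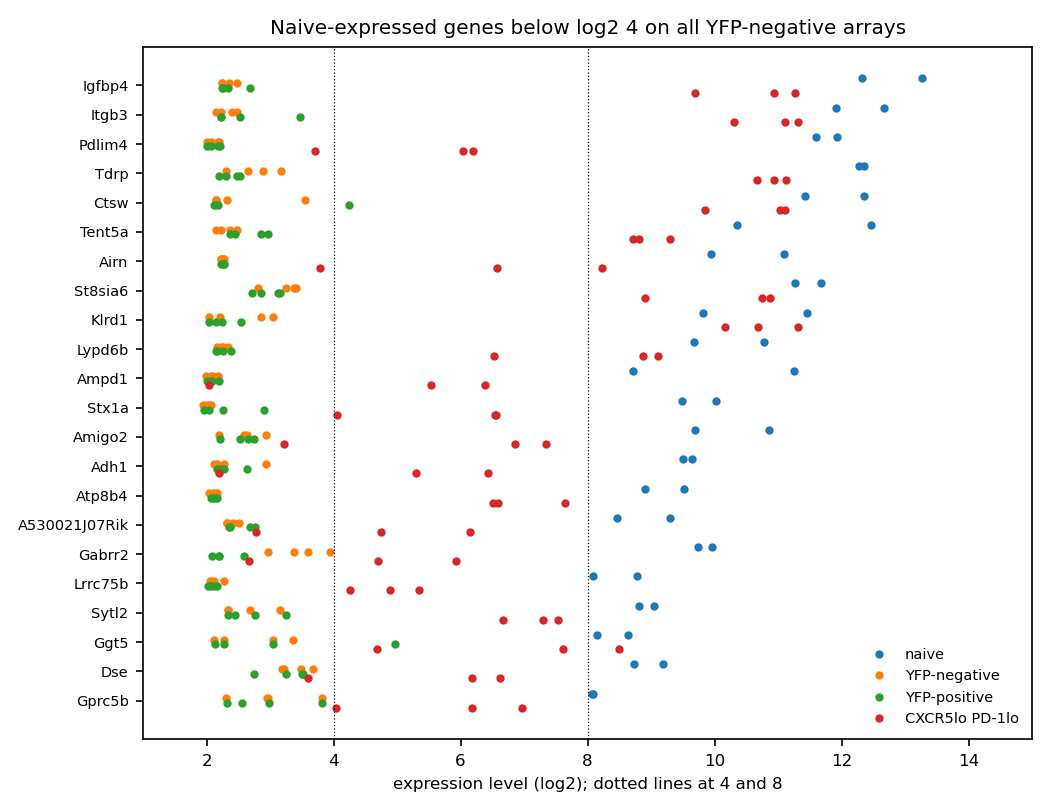
Log2 expression level on every naive, YFP-negative, YFP-positive and CXCR5lo PD-1lo array of the 22 naive-expressed genes that were under log2 4 on all YFP-negative arrays. YFP-positive arrays lay with the YFP-negative arrays, while the CXCR5lo PD-1lo arrays spread between both levels and reached a mean of log2 8 or more for 8 genes.

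The 22 lost genes were under a mean of log2 4 in YFP-positive cells too (22 of 22), in Bcl6yfp/+ cells (22 of 22) and in Bcl6+/+ cells (21 of 22). In CXCR5lo PD-1lo cells none had a mean under log2 4, and 8 had a mean of log2 8 or more. The 12 genes with the largest falls without overlap were Igfbp4, Dapl1 and 10 others, all but Dapl1 among the lost. The integrin chain Itgb3 stood at 2.15 to 2.47 on YFP-negative arrays and at 12.67 and 11.92 on naive arrays (-9.98, SE 0.77), and at 10.91 ± 0.54 (SD, n = 3) in CXCR5lo PD-1lo cells. The LIM domain gene Pdlim4 stood at 2.19 or below against 11.93 and 11.59 (-9.65, SE 0.46), and at 5.31 ± 1.39 (SD, n = 3) in CXCR5lo PD-1lo cells. The others were Tdrp (-9.57), the protease gene Ctsw (-9.34), Tent5a (-9.10), the noncoding RNA Airn (-8.28), the sialyltransferase gene St8sia6 (-8.26), Klrd1 (-8.10), Lypd6b (-7.98) and the AMP deaminase gene Ampd1 (-7.90). Klrd1 and Ctsw are best known from natural killer and CD8 T cells. Klrd1 stood at 11.45 and 9.81 in naive cells, where Cd8a stood at 2.25 and 2.35 and Nkg7 at 2.11 and 2.26, both at the floor. Of 9 CD8 T and NK cell markers with a probe set, 2 reached log2 8 on each naive array. On naive replicates 1 and 2, 5 and 6 of them lay under log2 4. The source of these transcripts was not tested.

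The level of naive genes was next compared with YFP-positive Tfh cells, which the same CXCR5hi PD-1hi sort gave. Of 9931 genes 12 (0.121%) were called between them, 8 higher (0.0806%) and 4 lower (0.0403%) in YFP-negative cells, and 3 of the 63 naive-list genes were among these, all higher in YFP-negative cells: Klf2, S1pr1 and Scml4. Klf2 stood at 5.12, 6.05, 4.93 and 3.45 on YFP-positive replicates 1 to 4, below every YFP-negative array (3.67, SE 0.46, adjusted p = 0.0019). Its YFP-negative mean of 8.56 ± 0.87 (SD, n = 4) thus lay between that of YFP-positive (4.89 ± 1.08) and naive cells (11.79 ± 0.33, n = 2). Scml4 differed by 4.86 (adjusted p = 0.0019) and S1pr1 by 3.33 (adjusted p = 0.012). Blocking on the replicate number, which in these groups also sets like-normalized arrays against each other, added Il7r (2.72, adjusted p = 0.048) and Bach2 (2.28, adjusted p = 0.0079), making 5, although the first pair sets a day 10 array with Y-linked transcripts against a day 7 array with Xist. With the normalization set as a fixed or random block 28 and 30 of the 63 were called, and with quantile normalization or median centring 7. The share of all genes called in these fits and with the replicate block is not given here. These counts therefore cannot be read as particular to naive genes. Of the 63 differences 55 were above 0, with a median of 0.32 (0.00 over all genes). Dapl1 (-0.21) and Igfbp4 (-0.05) were not called.

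CXCR5lo PD-1lo cells of the immunized mice had higher levels than YFP-negative cells of many naive genes, in a comparison that uses the same YFP-negative arrays. Of 9931 genes 648 (6.53%) differed from YFP-negative cells, 311 higher (3.13%) and 337 lower (3.39%) in YFP-negative cells, and of the 63 naive-list genes 17 were lower and 1 was higher. Dapl1 was lower by 8.91 (SE 0.67, adjusted p = 1.1e-07), Igfbp4 by 8.30, Cd55 by 5.45, Il7r by 3.93 (adjusted p = 0.0021) and Klf2 by 2.99 (adjusted p = 8.3e-04). The means in CXCR5lo PD-1lo cells were 11.55 ± 0.12 (SD, n = 3) for Klf2, 13.97 ± 0.33 for Il7r and 13.30 ± 0.49 for Dapl1. Itgb7, not called against naive cells, was lower by 1.07 (adjusted p = 0.011). The gene that was higher was the sodium pump chain Atp1b1 (1.76, adjusted p = 0.022). All CXCR5lo PD-1lo arrays were from day 7, and with day 7 YFP-negative arrays alone 11 of the 63 were called in place of 18.

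Other receptors of position and growth changed in both directions. Of 15 chemokine and positioning receptors 6 rose and 4 fell, where 16.5% and 4.64% of all genes did. Beside Cxcr5, the chemokine receptors Cxcr6 (6.25) and Ccr6 (5.69) rose, and beside Ccr7, S1pr1 and S1pr4, the gut homing receptor Ccr9 fell by 4.19, from 7.08 and 5.83 in naive cells to between 2.20 and 2.37. Of 20 cytokine receptors 5 rose and 4 fell, against 16.5% and 4.64% of all genes. The decoy receptor Il1r2 rose by 6.03 (adjusted p = 0.0083), at 9.71 and 10.89 on day 10 and 6.5 and 5.65 on day 7, and Il17rb rose by 6.01. The interleukin 4 receptor chain Il4ra, named after its values were seen, fell from 11.13 and 11.38 to 8.14, 7.88, 8.10 and 7.25 (-3.41, SE 0.27, adjusted p = 8.3e-08), on the arrays where Il4 itself stood at 12.74 to 13.11.

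Co-stimulatory and inhibitory receptors rose in 10 of 20 and fell in 1 (Cd6, -1.14). For this list and those that follow here, 16.5% of all genes rose and 4.64% fell. Lag3, an inhibitory receptor, stood at 11.25 to 11.42 against 2.19 and 2.22 (9.10, SE 0.29), and the activation marker Cd44, whose low surface level defined the naive sort, rose by 4.21. Of 12 helper lineage regulators 4 rose and 2 fell. The zinc finger factor Ikzf2 (Helios) rose from 8.26 and 8.33 to between 13.33 and 13.66 (5.22, SE 0.30, adjusted p = 1.7e-09). Prdm1 (BLIMP-1), the factor that opposes BCL6, fell by 3.66 (adjusted p = 0.009), but its naive arrays were far apart at 7.75 and 4.32, and it was not called without naive replicate 1. Of 10 cytokines 2 rose, Lif (8.32) and Tnf (1.43), a share near the 16.5% of all genes.

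Genes that respond to the T cell receptor rose in 13 of 20 and fell in 1 (Myc, -1.91), with a median of 2.01. Beside this list and those below, 16.5% of all genes rose and 4.64% fell over all arrays. The interferon regulatory factor Irf4 rose by 5.02, Jun by 3.60 and Nfatc1 by 3.44. Jun stood at 7.05 and 10.37 on the naive arrays and at 11.98 to 12.57 on the YFP-negative arrays. Of 14 glycolysis genes 8 rose, with hexokinase Hk2 at 3.74, Tpi1 at 2.55 and Pgam1 at 1.65, and 2 fell, the glucose transporter Slc2a3 (-1.31) and Pdk1 (-0.99). Of 19 oxidative phosphorylation genes 0 were called in limma (2 at an unadjusted p under 0.05, smallest adjusted p = 0.078). With the set as a block 1 was lower, where 19.3% of all genes were. Of 13 cholesterol synthesis genes 1 was lower (Mvd, -1.94) over all arrays (4.64% of all genes) and 8 with the set as a block (19.3%). Interferon-induced genes split, with 8 of 21 higher (Oas1a by 3.58, Mx1 by 2.95) and 2 lower (Oas2, -4.25, and Ifit2, -0.96). In the BCL2 family 3 of 12 rose (16.5% of all genes did), namely the pro-apoptotic Pmaip1 (4.55), Bak1 (1.89) and Bad (1.46), and Bcl2 was the 1 that fell.

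Cell cycle genes spread widely between YFP-negative arrays. Of 40 tested, 20 rose and 0 fell (16.5% and 4.64% of all genes did), with a median of 3.05. The proliferation marker Mki67 stood at 11.50, 12.51, 12.96 and 10.29 against 3.49 and 4.79 (7.67, SE 0.79, adjusted p = 1.9e-06). The mean over the 40 genes was 5.97 and 6.22 on the naive arrays, 8.38 and 7.29 on the day 10 arrays and 10.06 and 10.35 on the day 7 arrays. With the set as a block 5 of the 40 were higher, where 22.3% of all genes were, with a median of 0.92. That fit rests on naive replicate 1 beside YFP-negative replicate 4, the lowest of the 4. Day and sex-linked transcripts cannot be told apart here. Replicate 1, also of day 10 with Y-linked transcripts but in another normalization set, stood at 8.38 against 7.29 for replicate 4. What sets replicate 4 apart was not tested.

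**Figure D5:**
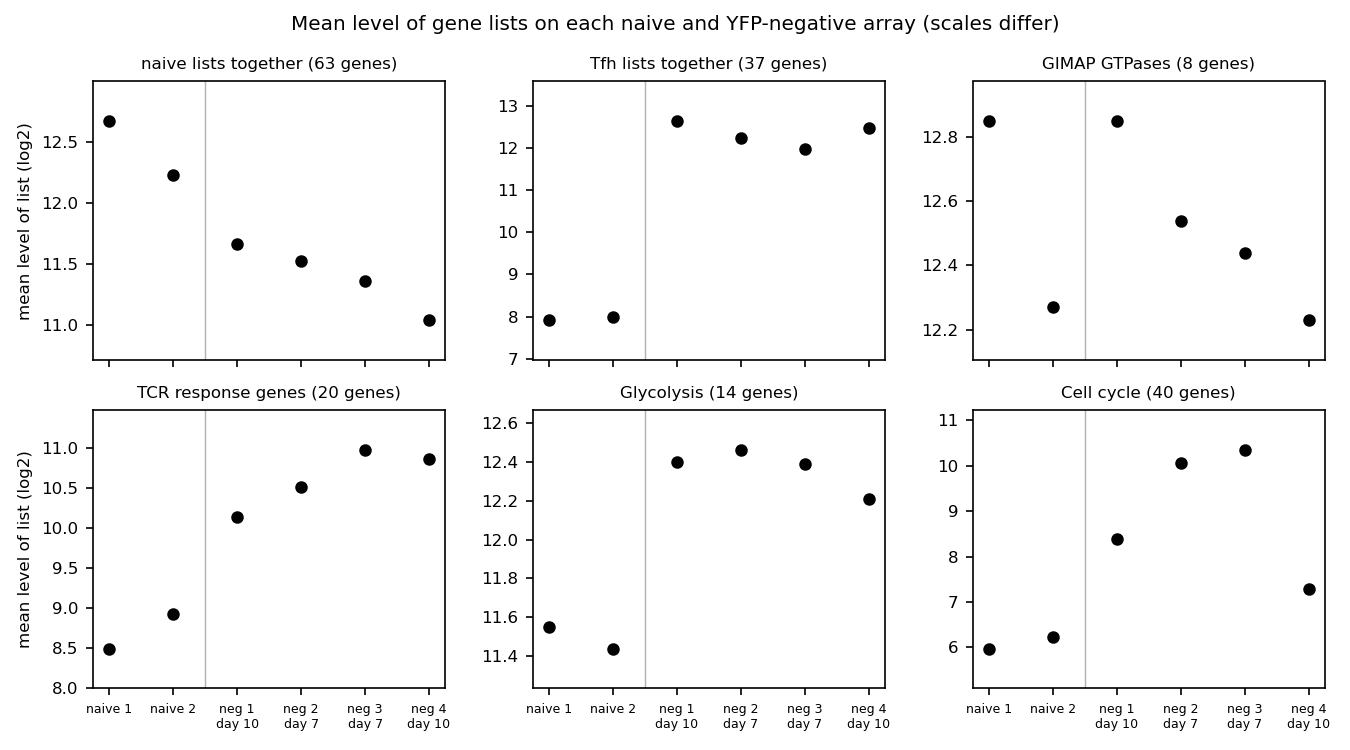
Mean log2 level of 6 gene lists on each naive and YFP-negative array (scales differ between panels; 1 point per array). The mean over the 63 genes of the naive lists together was lower, and that over the 37 Tfh genes higher, on all 4 YFP-negative arrays than on both naive arrays, the GIMAP GTPases overlapped, and the cell cycle list was highest on the day 7 arrays (10.06 and 10.35).

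Receptors known from B cells and a protease from killer cells also differed. Cd22, an inhibitory receptor, stood at 11.52, 9.86, 9.44 and 11.05 against 2.20 and 2.22 in naive cells (8.25, SE 0.67, adjusted p = 1.1e-07), on arrays where Cd79a and Ms4a1 lay at the floor. Cd72 went the other way, at 5.56 to 6.84 against 10.45 and 10.19 (-4.11, SE 0.49). The granzyme gene Gzma stood at 14.16 and 13.43 on day 10 and at 10.78 and 10.31 on day 7, against 4.0 and 2.30 (9.02, SE 0.98, adjusted p = 3.5e-06), with Gzmb at 2.06 to 2.17 on all 6 arrays.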

How the data were processed

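Gene expression was measured on 19 Affymetrix arrays of sorted mouse CD4+ T cells, 1 array per sample. The deposited log2 values were made by the authors with GCRMA, per the submitters' processing notes, with a version and settings not given in the sources used here. Of 45101 probe sets, 34958 carried 1 gene symbol in the platform annotation, 932 several and 9211 none, and 34754 matched RefSeq genes by identifier. Probe sets reaching log2 4 on at least 2 arrays were kept, and the 1 with the highest mean stood for its gene, giving 9931 genes.

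All 19 arrays entered a group-means model in limma 3.58.1 (R 4.3.3), with moderated variances shared by the 6 groups. Benjamini-Hochberg adjustment ran over all genes, with calls at an adjusted p under 0.05. The script was tested on simulated data. Errors of differences are standard errors (SE) and of levels standard deviations (SD). Separate animals are not stated for the arrays, and the p-values reflect the spread of these samples alone, perhaps a technical one, and the number of arrays limits the precision.

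Normalization sets were read from the columns' sorted values, with a mean difference under log2 0.06 taken as 1 set (at most 0.0482 within and at least 0.0666 between the 7 sets). Numbers paired YFP-negative with YFP-positive arrays (correlations of deviations 0.45, 0.76, 0.80 and 0.87) and with CXCR5lo PD-1lo arrays (0.31, 0.39 and 0.27). They coincide there with the sets, and in the first pair of each, days and sex-linked transcripts differ. YFP-negative and naive arrays share only the number 2, and naive replicate 1 carries no number in its label. A block on the number gives that array a level of its own, so naive replicate 2 alone gives the difference from naive cells.

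Named genes were the 12 highest and 12 lowest differences among called genes whose groups did not overlap (undescribed, sex-linked and receptor segment names left out), the naive and Tfh lists, and of each other list the 3 called genes with the largest difference. Genes given for counts of 5 or fewer, or to describe a list or check a marker outside this rule, were chosen after their values were seen. The comparison, the gene lists and these rules were chosen with earlier results of these data known.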

Additional observations from a re-analysis of the deposited data

Results flagged for a closer look

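Of 148 named genes, 10 had 1 YFP-negative array far from the other 3 by Dixon's test, where chance gives about 1 in 20. Replicate 4 stood apart in 5: Ccr7 at 7.06 (others 9.74 to 10.00), Cd27 at 14.16 (14.38 to 14.41), Ctsw at 3.55 (2.14 to 2.32), Elf1 at 13.14 (13.45 to 13.51) and Tnfsf8 at 10.92 (11.68 to 11.75). Replicate 1 stood apart in 3: Cd74 at 10.32 (7.05 to 7.26), Mxd4 at 13.64 (13.08 to 13.12) and Sh2d1a at 14.43 (13.95 to 13.99), on the array that also carried Lyz1 and Jchain. Replicate 2 stood apart for Icos, at 14.40 (14.17 to 14.21), and replicate 3 for Hif1a, at 13.53 (13.95 to 13.97). Only for Ccr7, Cd74 and Ctsw did the value lie more than log2 1 from the nearest other array.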

How the results depend on the processing

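No named gene that was called changed direction in an alternative: of 105, 77 stayed called throughout and 28 lost the call at least once, most often without naive replicate 2 or 1, and 29 genes not called were called at least once. Over 2100 called genes, the set as a fixed block gave 4132 and as a random block 4148, and day 10 YFP-negative arrays alone 1375. Higher genes (1639) fell to 1085 with median centring and 1006 with day 10 alone. Lower genes (461) rose to 1916, 1853, 1537 and 1598 with the fixed block, the random block, quantile normalization and median centring. Naive-list genes called lower (19) rose to 34, 34, 31 and 32. Leaving out 1 array at a time gave 1124 to 2109 called genes, 789 to 1695 higher, 252 to 421 lower, 14 to 20 of the naive lists and 25 to 31 of the Tfh lists. The low ends rested on naive arrays: 1124 called and 789 higher without replicate 2, and 252 lower without replicate 1. Without YFP-negative replicate 1, the array with myeloid and plasma cell transcripts, 1692 were called, 409 of them lower, with 20 of the naive lists.

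Naive-list genes called against YFP-positive cells (3) numbered 1 in a fit of those groups alone, 28 and 30 with the fixed and random set block, 5 with the replicate block, 7 with quantile normalization and 7 with median centring, and 2 to 6 without 1 array (6 without YFP-positive replicate 4). Against CXCR5lo PD-1lo cells (18) they numbered 42 and 41 with the set blocks, 11 with day 7 alone and 12 to 19 without 1 array. For both comparisons the share of all genes called in each alternative is not given here. At log2 2 the pair had 702 higher and 466 lower genes. Lost genes (22) numbered 7 where naive-expressed meant log2 10, 22 to 36 without 1 array (36 without naive replicate 2), and kept genes 4230 at log2 10. With the replicate number as a block, where YFP-negative and naive arrays share 1 number, 1866 genes were called (1545 higher, 321 lower), 14 naive-list genes lower and 30 Tfh genes higher. The Tfh list count, from 25 to 33 over its alternatives, stayed within 1.5 times of 32. The Y-linked covariate was chosen after seeing the data and moved no count by 1.5 times (2242 called). The cause of these shifts was not tested.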
